A study of Mus musculus with 40 samples.

Results

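The oxygen sensing genes Egln1, Egln2, Egln3, Hif1a and Vhl were followed through a ChIP-seq study of mouse small pre-B cells. A region was taken as a member when 1 of these 5 genes had the start nearest to it within 200 kb, by the distances the authors listed for each region. This gave 191 of 863771 regions over the tables of 7 targets: 59 were H3K4me1 and 76 H3K27ac regions, 20 belonged to WAPL, 16 to CTCF, 8 each to RAD21 and NIPBL, and 4 to SMC3. The genes were chosen by a measured value of these libraries, the gain of the cohesin subunit SMC3 beside Egln3 in knockout cells, so the SMC3 difference between genotypes is given as a description, with no test.

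Cells adjust to oxygen through a short chain of proteins. Egln1, Egln2 and Egln3 encode prolyl hydroxylases that use oxygen to hydroxylate the transcription factor subunit HIF1A, and the product of Vhl, the recognition subunit of a ubiquitin ligase, then marks hydroxylated HIF1A for destruction. When oxygen is short, HIF1A persists and turns on genes of glycolysis and of oxygen supply, Egln3 among them, and developing B cells meet low oxygen in the bone marrow.

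The cells were primary small pre-B cells, the stage that rearranges the Ig kappa light chain genes, sorted from bone marrow of wild type (WT) mice or of Brwd1-/- mice (BRWD1KO, KO below), whose product binds acetylated histones. A further set was WT cells cultured with Oligomycin A, an inhibitor of the mitochondrial ATP synthase, at 126 nM for 2 h (ATPneg). The untreated WT cells were not cultured, per the labels, so culture and oligomycin cannot be told apart. The labels give no age or strain of the mice, do not say how the Brwd1 allele was made and do not say whether mice were pooled. CTCF is an insulator protein at which cohesin halts, RAD21 and SMC3 are cohesin subunits, NIPBL loads cohesin, WAPL releases it, and H3K27ac and H3K4me1 are histone marks of active regulatory DNA and of enhancers. Each target had 2 libraries per genotype, described as biological replicates, and NIPBL, RAD21, SMC3 and WAPL also had 2 oligomycin libraries, which have peak lists without counts here, so their depth is not known.

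The libraries held 3784506 to 30496715 reads in regions of their target, and for SMC3, RAD21 and NIPBL both KO libraries were shallower than both WT libraries. The peaks of some lists are named after another sample: those of H3K27ac in KO after H3K4me1, those of H3K4me1 in WT after H3K27ac in knockout cells, and those of the libraries KO 2 and WT 1 of NIPBL after each other's genotype. Of the peaks in the H3K4me1 WT lists 94.1% and 94.6% also lay in H3K27ac regions, as did 94.0% and 93.5% of those in the H3K4me1 KO lists. A start was within 2 kb for 7.24% and 7.41% of the peaks in the H3K4me1 WT lists, and for 4.75% and 4.91% of those in the H3K4me1 KO lists. For the KO libraries of both marks the genotype field reads WT, whereas title and description name the knockout, and the titles were followed. An exchange of libraries was not tested. H3K4me1 regions lay within 2 kb of the start of 12 of 12 small pre-B cell genes, against 4 of 8 T cell, 4 of 8 myeloid and 3 of 8 erythroid genes. For H3K27ac the counts were 7 of 12, 5 of 8, 4 of 8 and 4 of 8, with none at Vpreb1, Vpreb2, Vpreb3, Igll1 or Rag2.

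Of the 5 genes 3 had a region within 2 kb of their start: Hif1a, Egln2 and Egln3. Their promoters are shown because H3K4me1 regions described below lie at or close to these starts. Each promoter runs from 250 bases before to 50 after the start in RefSeq, build GRCm38.p6, whereas the regions are in mm9. By the listed distances, the H3K4me1 region of Hif1a begins 134 bp downstream of the start, beyond the printed stretch. The H3K4me1 region at the Egln3 start was not called. Capitals mark ACGTG or GCGTG on either strand, the core bound by HIF dimers, and a CACGTG counts once on each strand.
Hif1a (chr12:73907617-73907916, plus strand): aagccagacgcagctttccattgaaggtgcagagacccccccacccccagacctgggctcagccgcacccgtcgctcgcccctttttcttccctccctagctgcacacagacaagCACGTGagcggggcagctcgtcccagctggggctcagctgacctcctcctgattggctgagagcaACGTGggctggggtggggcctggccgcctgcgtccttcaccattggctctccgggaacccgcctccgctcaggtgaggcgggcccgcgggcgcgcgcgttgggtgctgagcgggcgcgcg
Egln2 (chr7:27166753-27167052, minus strand): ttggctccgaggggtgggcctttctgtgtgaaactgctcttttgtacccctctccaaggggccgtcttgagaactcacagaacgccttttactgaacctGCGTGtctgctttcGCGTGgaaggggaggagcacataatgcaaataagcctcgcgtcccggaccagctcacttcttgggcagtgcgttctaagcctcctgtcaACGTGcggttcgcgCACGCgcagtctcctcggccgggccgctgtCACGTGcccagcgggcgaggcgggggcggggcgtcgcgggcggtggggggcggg
Egln3 (chr12:54203825-54204124, minus strand): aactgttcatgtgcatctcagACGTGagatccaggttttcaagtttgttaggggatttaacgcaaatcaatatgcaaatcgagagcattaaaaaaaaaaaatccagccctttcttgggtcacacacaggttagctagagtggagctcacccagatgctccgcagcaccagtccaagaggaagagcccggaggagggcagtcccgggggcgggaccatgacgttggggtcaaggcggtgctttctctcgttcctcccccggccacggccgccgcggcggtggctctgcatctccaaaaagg
The Hif1a window held 3 matches, the Egln2 window 6 and the Egln3 window 1. A second RefSeq start of Egln2, not printed, had a window with 1 match and 4 CpG. Of 32851 promoter windows of this length 43.8% held at least 1 match and 0.694% held 6 or more. The Hif1a window held 25 CpG, the Egln2 window 29 and the Egln3 window 16, against a median of 7 over all windows. All 5 genes had a window, and those of Egln1 and Vhl, with 2 matches and none, are not printed because no target had a region within 2 kb of these starts. A match describes the letters and is no evidence of binding.

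The member regions were spread unevenly over the genes. Egln3, a hydroxylase gene that HIF1A itself turns on, was nearest to 95 of the 125 regions that list it within 200 kb, and Hif1a to 65 of 158. Egln1, the hydroxylase that sets HIF1A levels in most cells, was nearest to 25 of 150, Egln2 to 4 of 138 and Vhl to 2 of 148. The regions of Egln3 were mostly distant, with 74 of 95 more than 50 kb from the start, and 19 of them lay inside the neighbouring gene Npas3. All 25 regions of Egln1 lay inside Tsnax, which overlaps it, and 14 of them also inside Egln1. At the edge of the rule, the SMC3 region farthest inside lay 162 kb from Egln3. The nearest SMC3 region that the rule left out lay upstream of Egln3 but closer to Gm7550, at 61617 bp.

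Merging regions of different targets that overlap left 93 sites, of which 38 were in 1 table, 49 in 2 to 4 and 6 in 5 or more. The 6 sites in 5 or more tables all lay around Egln3.

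**Figure D1:**
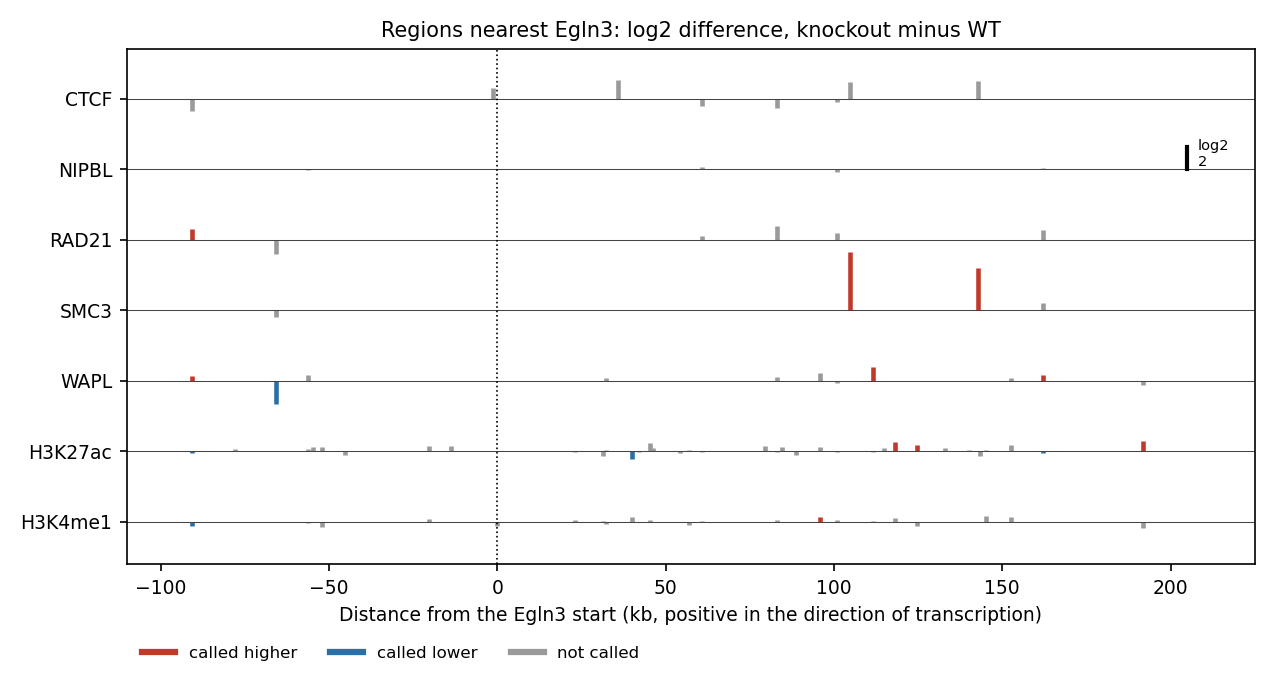
Log2 difference between KO and WT for each tested region nearest Egln3, by target, against distance from the Egln3 start in kb; bars above a line are higher in KO, and the black bar is the scale. The tallest bars are the SMC3 regions at 105 and 143 kb, and the downward WAPL bar lies 65.8 kb upstream of the start.

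SMC3 had 4 member regions, all nearest Egln3. At the region 105 kb downstream of the Egln3 start (mm9, chr12:55199798-55200208, intergenic in the authors' annotation), the SMC3 level was 10.97 and 11.08 CPM (reads scaled to library depth with TMM factors) in the KO libraries. It was 0.326 and 0.188 CPM in the WT libraries. These came from 46 and 49 reads in KO and from 5 and 3 reads in the deeper WT libraries. Both KO libraries were far above both WT libraries, and the log2 difference was 5.36 ± 0.35 (SE, n = 2 against 2).

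The second region lay 143 kb downstream, inside Npas3 (chr12:55161801-55162070). Its SMC3 level was 8.35 and 6.11 CPM in KO and 0.718 and 0.2501 CPM in WT, a log2 difference of 3.87 ± 0.51, and again the genotypes did not overlap. Both regions had a level close to nothing in WT. No WT list of SMC3 held a peak at either, so both entered the table through KO, which favours a KO level above WT.

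The other 2 SMC3 regions behaved differently. At 162 kb downstream, inside Npas3, SMC3 measured 125.9 and 120.3 CPM in KO and 95.75 and 63.52 CPM in WT, a log2 difference of 0.63 ± 0.21. The input, sonicated chromatin without antibody, was dense here (called so above 100 reads per kb), with 6080 reads per kb in KO and 5340 in WT. At 65.7 kb upstream (chr12:55370610-55371222) SMC3 was lower in KO, with 1.91 and 2.04 CPM against 2.61 and 3.50 CPM, a log2 difference of -0.63 ± 0.34.

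CTCF was measured at the same places. Of its 15 tested member regions 0 were called at an adjusted p under 0.05, with 0.0396% of all CTCF regions called by edgeR, 0.00792% higher and 0.0317% lower. DESeq2 also called 0 of them, and 3 had an unadjusted p under 0.05 in edgeR. The 16 CTCF regions fell into 2 groups by the peak lists. Of these, 9 had a peak in a CTCF KO list and 7 had a peak in the WT 2 list alone, a library with 67796 listed peaks against 21429 in WT 1.

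**Figure D2:**
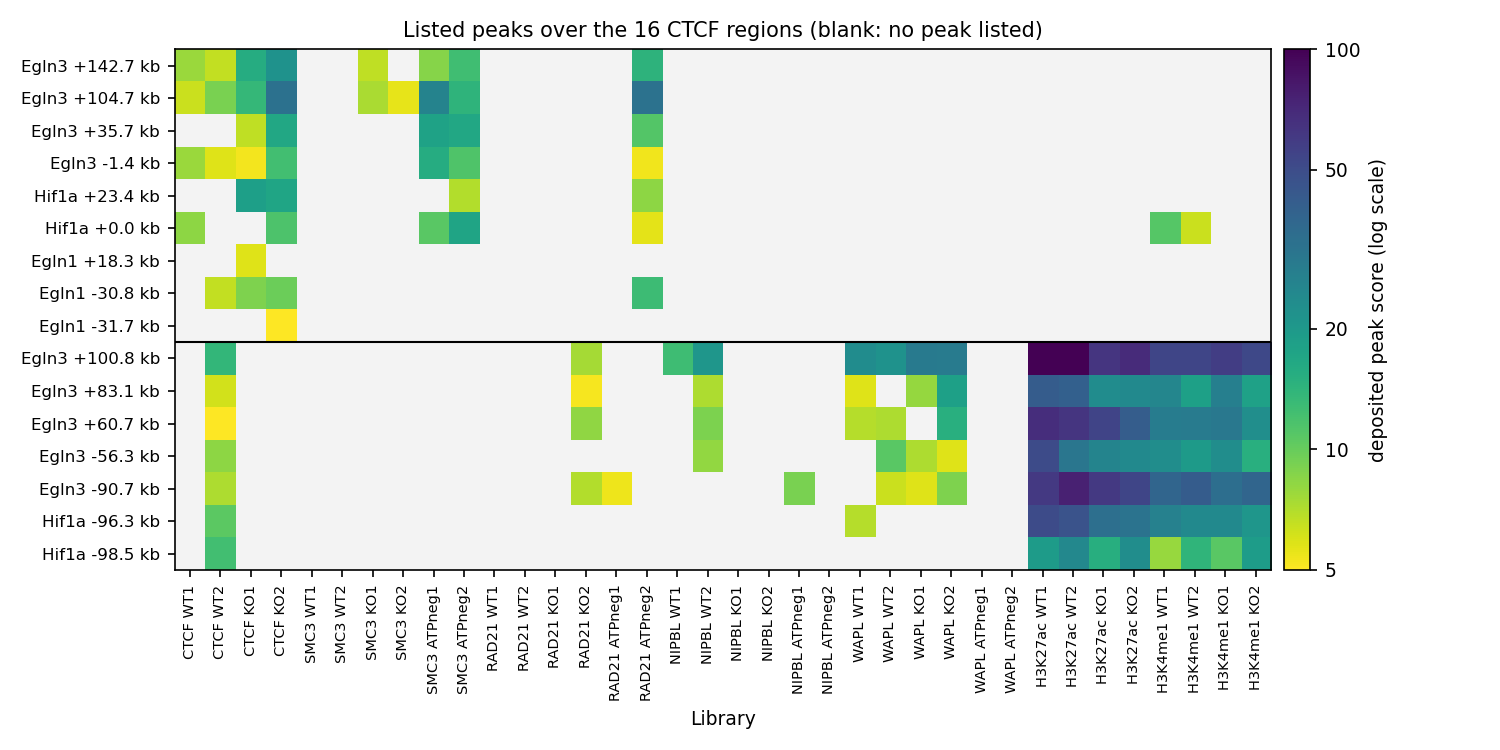
Deposited peak score (log color scale) of each library over the 16 CTCF regions, labelled by nearest gene and distance from its start; grey means that no peak was listed. The upper 9 regions carry CTCF KO peaks, with SMC3 peaks in both oligomycin libraries at 5 of them and RAD21 peaks in the second at 7, and the lower 7 carry histone mark peaks in all 8 libraries of the marks with a CTCF peak in WT 2 alone.

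The group with CTCF KO peaks held the SMC3 sites of Egln3. At 105 kb downstream (chr12:55199738-55200152) CTCF measured 11.3 and 16.9 CPM in KO and 7.31 and 2.75 CPM in WT, a log2 difference of 1.55 ± 0.74 with an adjusted p of 0.311 by edgeR. The KO libraries lay above the WT libraries, but the WT libraries differed from each other by more than a factor of 2. At 143 kb (chr12:55161774-55162149) CTCF measured 12.3 and 15.96 CPM in KO and 6.53 and 3.003 CPM in WT (log2 difference 1.62 ± 0.74). At 35.7 kb, beyond the end of Egln3 (chr12:55268767-55269119), the levels were 7.18 and 10.2 CPM in KO and 3.66 and 1.92 CPM in WT (1.70 ± 0.74). These regions were picked out after their values were seen, because SMC3 lists a peak there, at 35.7 kb under oligomycin alone. Their group was set by CTCF peaks in KO lists, which favours a KO level above WT. At 35.7 kb no WT list of CTCF held a peak, so that region entered the table through KO.

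Close to the Egln3 start, 1.36 kb upstream (chr12:55306219-55306506), CTCF measured 6.97 and 7.88 CPM in KO and 5.49 and 2.49 CPM in WT. All 4 CTCF libraries listed a peak there. The Hif1a start had a CTCF region as well (chr12:75008888-75009278, from 33 bp downstream, inside the gene), with 6.15 and 9.42 CPM in KO and 12.01 and 2.62 CPM in WT. The KO libraries lay between the WT libraries. A second region inside Hif1a, 23.4 kb downstream (chr12:75032236-75032628), was the highest CTCF region of that gene, with 12.9 and 14.0 CPM in KO and 11.5 and 7.29 CPM in WT. Its CTCF peaks were listed in KO alone, so it entered the table through KO.

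Near Egln1 the highest CTCF region lay 30.8 kb upstream, inside Tsnax (chr8:127503977-127504258), with 7.80 and 8.07 CPM in KO and 3.92 and 2.17 CPM in WT (log2 difference 1.43 ± 0.73, adjusted p 0.311 by edgeR). CTCF had no region nearest Egln2 or Vhl. The WT libraries of CTCF differed in level and depth, and leaving out either moved the calls. WT 2 was the deeper, with 17055094 reads in CTCF regions against 3880112. Without it, 4 of the tested member regions were called by edgeR: those of Egln3 at 143 kb (log2 1.12), 105 kb (0.960) and 35.7 kb (1.26), and 1 lower region at 90.7 kb upstream (-0.830), with 22.3% of all CTCF regions called. Without WT 1, 14 members and 84.1% of all regions were called.

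**Figure D3:**
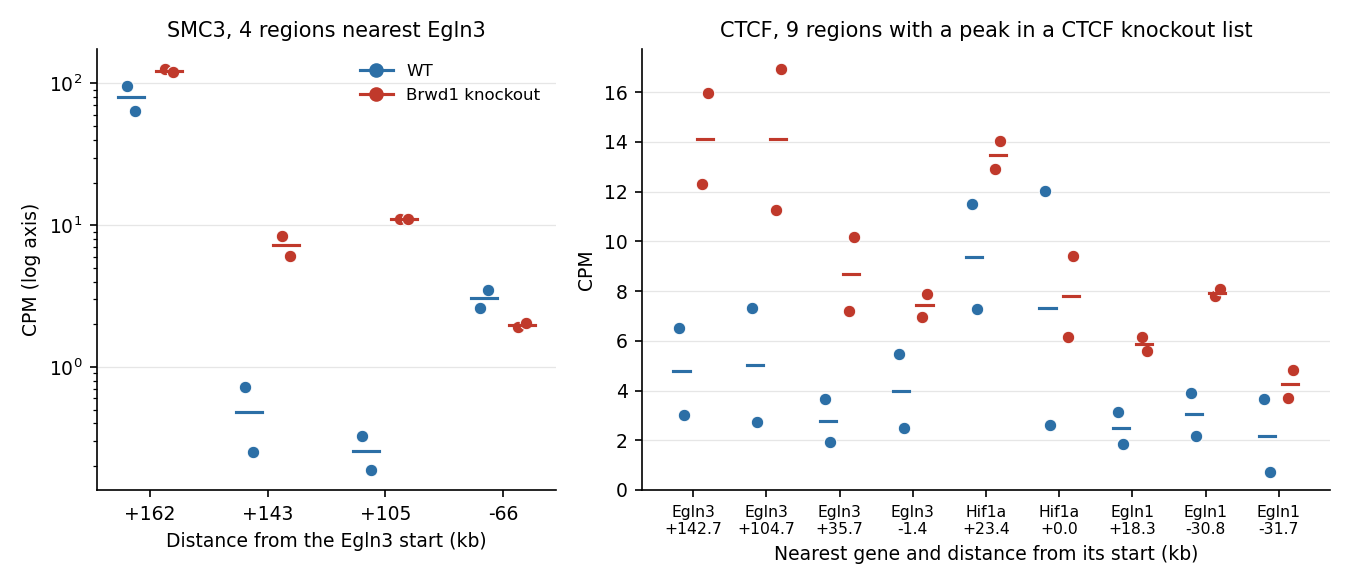
Left, SMC3 level in CPM (log axis) at its 4 member regions; right, CTCF level in CPM at the 9 regions with a peak in a CTCF KO list. Points are single libraries and bars are means of 2; the SMC3 genotypes are far apart at 143 and 105 kb, whereas at the Hif1a start the KO points for CTCF lie between the WT points.

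Oligomycin was compared through the peak lists, as a count of regions with a listed peak. SMC3 peaks were present in both oligomycin libraries over 5 of the 9 regions with a CTCF KO peak: at Egln3 143, 105 and 35.7 kb downstream and 1.36 kb upstream, and at the Hif1a start. The deposited SMC3 peak scores under oligomycin were 26.1 and 14.3 at 105 kb, 17.7 and 16.6 at 35.7 kb, and 10.7 and 17.4 at the Hif1a start. None of the 9 had an SMC3 peak in a WT list, and 2 of them had one in a KO list, at 105 and 143 kb. Of all CTCF regions with a CTCF KO peak 69.8% had SMC3 peaks in both oligomycin libraries.

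RAD21 gave a split answer. The second oligomycin library listed RAD21 peaks over 7 of the 9 regions and the first over none, where 77.0% and 23.5% of all CTCF regions with a CTCF KO peak had one. The second list held 35784 peaks and the first 16375, and no WT list of RAD21 held a peak over the 9. The highest RAD21 score, 32.5, was at the Egln3 region 105 kb downstream. NIPBL and WAPL listed no peak over the 9 regions in any condition, where 1.9% and 3.61% of all CTCF regions with a CTCF KO peak had one.

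The 7 regions with a CTCF peak in WT 2 alone were read in the same way. All 7 had H3K27ac and H3K4me1 peaks, 5 had NIPBL peaks and 6 WAPL peaks, and none had an SMC3 peak. RAD21 peaks were listed in KO 2 at Egln3 101, 83.1 and 60.7 kb downstream and 90.7 kb upstream. The last also had one in the first oligomycin library. Of all CTCF regions with a peak in WT 2 alone 79.2% had an H3K27ac peak, 77.1% an H3K4me1 peak and 75.6% a NIPBL peak. A WAPL peak was present at 92.7% of them, a RAD21 peak at 62.4% and an SMC3 peak at 49.8%. The WT input of the 7 ran from 81.5 to 1780 reads per kb, against 0 to 139 for the 9 regions with CTCF KO peaks. A part of the dense input in these peaks was not tested.

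Counted within each target's own table, a peak in both oligomycin libraries was present in 2 of 4 SMC3 member regions (20.2% of all SMC3 regions) and 1 of 8 RAD21 member regions (8.02%). For NIPBL it was 1 of 8 (12.9%) and for WAPL 0 of 20 (1.64%). The NIPBL and RAD21 regions were the dense-input site 162 kb downstream of Egln3, which held NIPBL scores of 25.9 and 27.1 and RAD21 scores of 37.4 and 18.0. These shares miss peaks outside the tables, which were built from WT and KO lists: 44.9% and 47.4% of the SMC3 oligomycin peaks fell within SMC3 regions.

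RAD21 itself was called higher at 1 of 8 member regions, with 2.30% of all RAD21 regions called higher and 21.1% lower by edgeR. It was the region 90.6 kb upstream of Egln3 (chr12:55395511-55395622), with 37.2 and 48.1 CPM in KO and 21.3 and 20.9 CPM in WT. Both KO libraries lay above the WT libraries, the log2 difference was 1.01 ± 0.25 and the adjusted p by edgeR was 0.0497. The call was lost in 7 of the 10 alternative fits, and the input held 1590 reads per kb in KO and 1320 in WT. At the RAD21 region near Egln1, 35.7 kb upstream inside Tsnax (chr8:127508831-127508970), levels were 16.6 and 9.87 CPM in KO and 5.51 and 6.96 CPM in WT, with an adjusted p of 0.0737. The median log2 difference was 0.73 over the tested members and -0.39 over all tested RAD21 regions. Of the 8 members 7 had a RAD21 peak in a KO list and 1 in a WT list. Of all 88793 RAD21 regions 47142 had one in a KO list and 51378 in a WT list. Most members thus entered the table through KO, which favours a KO level above WT. A dense input was found at 7 of the 8 members and at 38.6% of all RAD21 regions.

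The exception was the site 65.8 kb upstream of Egln3, which RAD21, SMC3 and WAPL shared, where CTCF had no region and the input held at most 19.6 reads per kb. It was picked out after its values were seen. RAD21 (chr12:55370665-55371192) measured 1.34 and 0.834 CPM in KO and 3.09 and 2.41 CPM in WT, a log2 difference of -1.33 ± 0.43 with an adjusted p of 0.0754 by edgeR. WAPL (chr12:55370615-55371235) measured 0.743 and 0.469 CPM in KO and 2.76 and 2.52 CPM in WT. Both WAPL KO libraries lay below both WT libraries, by a log2 difference of -2.11 ± 0.29 with an adjusted p of 0.00623. RAD21 and WAPL listed peaks here in both WT libraries and SMC3 in WT 2, and no KO or oligomycin list of these 3 targets had one. The site thus entered the tables of these targets through WT, where its levels are higher. Without KO 1 the adjusted p of WAPL was 0.0611, and without KO 2 it was 0.0753.

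WAPL, which frees cohesin from chromatin, had 20 member regions, of which 7 rose and 1 fell, with 13.1% of all WAPL regions called higher and 27.6% lower by edgeR. The total of 8 is 40.0% of the members, against 40.7% of all regions, a share near the background. The 7 that rose were split between Egln3 with 3, Hif1a with 3 and Egln1 with 1. At the Hif1a region 104 kb upstream (chr12:74904487-74904776), WAPL measured 5.97 and 7.47 CPM in KO and 3.24 and 3.02 CPM in WT, a log2 difference of 1.101 ± 0.22 with an adjusted p of 0.014. At the Egln1 region 35.7 kb upstream (chr8:127508832-127508963) it measured 19.1 and 14.0 CPM in KO and 8.52 and 7.37 CPM in WT, a log2 difference of 1.06 ± 0.20 with an adjusted p of 0.0123. The KO libraries lay above the WT libraries at both. Neither had a peak in a WT list of WAPL, so both entered the table through KO, where they are high. So did the risen regions 113 and 65.3 kb upstream of Hif1a and 112 kb downstream of Egln3. Of the 20 members 17 had a WAPL peak in a KO list and 10 in a WT list. Of all 127769 WAPL regions 75358 had one in a KO list and 94428 in a WT list.

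All 7 regions that rose had a dense input, as had 18 of the 20 members and 54.2% of all WAPL regions. Without KO 1 or without KO 2 no member was called, when 3.09% and 3.72% of all WAPL regions were. The part of the dense input in these gains was not tested.

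NIPBL, the loader of cohesin, had 5 regions nearest Egln3 and 3 nearest Hif1a, 0 of 8 called by edgeR and 0 of 8 with an unadjusted p under 0.05, with 1.63% of all NIPBL regions called by edgeR, 0.995% higher and 0.63% lower. The highest was the site 162 kb downstream of Egln3 (chr12:55142650-55142769), at 168.3 and 163.7 CPM in KO and 151.5 and 155.7 CPM in WT. The log2 difference was 0.11 ± 0.08 with an adjusted p of 0.452. At the NIPBL region nearest the Hif1a start, 65.3 kb upstream, levels were 6.86 and 3.15 CPM in KO and 6.36 and 4.70 CPM in WT, and the genotypes overlapped. DESeq2 gave an adjusted p for 2 of the 8 regions and called 0. The members' median log2 difference was -0.00319, against 0.00246 over all tested NIPBL regions.

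H3K4me1 fell at the starts of Hif1a and Egln2. At Hif1a the region began 134 bp downstream of the start, inside the gene (chr12:75008989-75009728), and overlapped the CTCF region there. It measured 1.22 and 1.28 CPM in KO and 4.85 and 3.88 CPM in WT. Both KO libraries lay well below both WT libraries, by a log2 difference of -1.79 ± 0.22 with an adjusted p of 2.67e-14 by edgeR. H3K4me1 peaks were listed there in both WT libraries, with scores of 11.0 and 6.33, and in no KO library. The region thus entered the table through the genotype where it is high.

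Egln2, whose product is the mostly nuclear member of the hydroxylase family, had a region across its start (chr7:27950293-27952161). H3K4me1 there measured 5.10 and 6.39 CPM in KO and 11.5 and 11.7 CPM in WT, a log2 difference of -1.005 ± 0.12 with an adjusted p of 6.49e-16. The neighbouring region 0.549 kb upstream, inside Rab4b (chr7:27952371-27954165), measured 11.2 and 12.8 CPM in KO and 10.8 and 11.5 CPM in WT, and the genotypes overlapped (0.11 ± 0.10, adjusted p 0.534). Over all genes, H3K4me1 regions within 2 kb of a start were called lower at 43.0% and higher at 12.2%, so a fall at 2 of the 4 member regions there is a share near the background. Both falls kept their call in all 10 alternative fits, with log2 differences between -1.95 and -1.63 at Hif1a and between -1.18 and -0.854 at Egln2. The names inside the H3K4me1 WT peak lists, given above, touch these values, and their part was not tested. The fits all used the same regions, so the listing of the Hif1a region in WT alone holds in each of them.

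At the Egln3 start (chr12:55304358-55304858, from 3 bp downstream) H3K4me1 measured 1.70 and 2.09 CPM in KO and 2.45 and 2.62 CPM in WT. The KO libraries lay below the WT libraries, but the difference of -0.42 ± 0.22 did not pass the test (adjusted p 0.219). The regions nearest the starts of Egln1, at 2.68 kb downstream, and Vhl, at 2.67 kb upstream, did not pass it either, with log2 differences of 0.35 ± 0.17 and 0.30 ± 0.21.

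Inside Egln1, where Tsnax overlaps, the mark rose at 4 of 8 regions, beside 6.44% called higher over all H3K4me1 regions. The 4 lay between 19.9 and 25.0 kb downstream of the start. A region among them at 21.8 kb overlapped between genotypes, with 7.35 and 6.57 CPM in KO and 6.82 and 6.61 CPM in WT (log2 difference 0.05 ± 0.13, adjusted p 0.851). The largest change was at 25.0 kb (chr8:127446764-127448182), with 8.69 and 7.496 CPM in KO and 3.86 and 3.54 CPM in WT, a log2 difference of 1.13 ± 0.14 with an adjusted p of 4.52e-14. At 19.9 kb (chr8:127452352-127453261) the levels were 5.41 and 5.35 CPM in KO and 2.82 and 2.96 CPM in WT (0.89 ± 0.16, adjusted p 1.46e-06). The regions at 21.4 and 23.1 kb rose by log2 0.94 ± 0.26 and 0.60 ± 0.13. KO lay above WT in every pair of libraries at these 4 regions. At 25.0, 21.4 and 19.9 kb an H3K4me1 peak was listed in KO alone. Those regions thus entered the table through the genotype where they are high. Without WT 2 the calls at 21.4 and 23.1 kb were lost (adjusted p 0.103 and 0.0625), and without KO 1 that at 21.4 kb.

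Of 59 H3K4me1 members 5 rose and 4 fell, with 6.44% of all H3K4me1 regions called higher and 9.98% lower by edgeR. The 9 called are 15.3% of the members, against 16.4% of all tested regions. The median log2 difference was 0.10 over the members and 0.00499 over all tested.

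**Figure D4:**
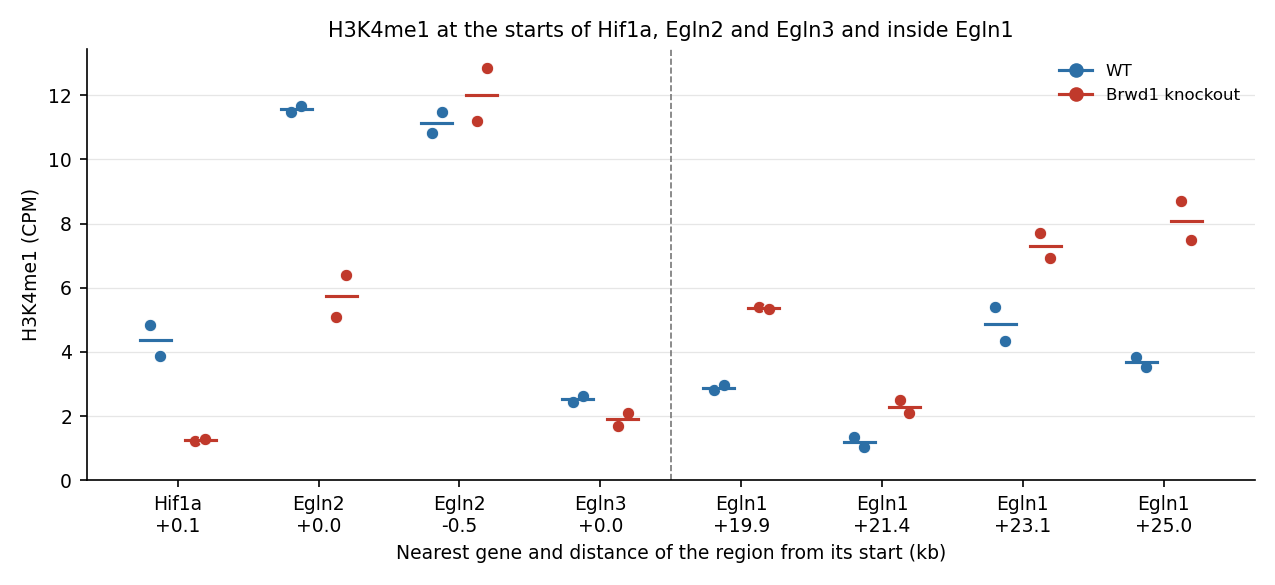
H3K4me1 level in CPM at the regions nearest the starts of Hif1a, Egln2 and Egln3 and at the 4 called regions inside Egln1; points are single libraries and bars are means of 2. KO points lie below WT points at the Hif1a start and at the region across the Egln2 start, and above them inside Egln1. At the Egln2 region 0.549 kb upstream the genotypes overlap.

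H3K27ac had no region within 2 kb of the start of Egln1, Egln3, Hif1a or Vhl. At Egln2 it had 2 such regions, neither called. The one 0.731 kb upstream, inside Rab4b (chr7:27952553-27953749), measured 4.09 and 4.39 CPM in KO and 3.82 and 4.19 CPM in WT. The one 0.944 kb downstream (chr7:27950517-27950877) measured 1.29 and 1.07 CPM in KO and 1.79 and 1.32 CPM in WT, a log2 difference of -0.39 ± 0.25. Neither separated the genotypes by the test (adjusted p 0.781 and 0.326).

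Of all 75 tested H3K27ac members 12 were called, 5 higher and 7 lower, none of them within 2 kb of a start. Over all H3K27ac regions 5.90% were called higher and 10.6% lower by edgeR. The total of 12 of 75 stands against 16.5% of all, a share near the background. The split by direction followed the scaling, with 9 higher and 4 lower by library totals and 2 higher and 14 lower by background scaling. Inside Egln1 at 12.6 kb downstream (chr8:127460475-127460593) the mark fell, from 9.47 and 8.26 CPM in WT to 5.76 and 5.86 CPM in KO, a log2 difference of -0.61 ± 0.11 with an adjusted p of 3.75e-06. At the Hif1a region 104 kb upstream (chr12:74904458-74904804), where WAPL rose, H3K27ac fell from 4.43 and 4.59 CPM to 2.84 and 3.24 CPM (-0.57 ± 0.15, adjusted p 0.00306). Downstream of Egln3 at 118 kb (chr12:55186703-55186845) it rose from 1.49 and 1.40 CPM to 2.46 and 2.66 CPM (0.83 ± 0.21, adjusted p 0.00144). The genotypes did not overlap at any of the 3. With DESeq2 the adjusted p was 0.0117 inside Egln1, 0.151 at Hif1a and 0.124 at 118 kb, and without KO 1 the edgeR value at Hif1a was 0.102. DESeq2 called 3 of the 12 and gave no adjusted p for 3 others.

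The highest H3K27ac level was again at the site 162 kb downstream of Egln3 (chr12:55142589-55142836), at 109.7 and 110.5 CPM in KO and 122.6 and 123.7 CPM in WT. The difference was small, -0.16 ± 0.03 on the log2 scale, with an adjusted p of 5.51e-05. By library totals it was -0.0546 with an adjusted p of 0.225. WAPL moved the other way at this site, from 83.4 and 82.5 CPM in WT to 123.6 and 119.5 CPM in KO (0.55 ± 0.07, adjusted p 0.00477).

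The rest of the pathway was read from a list of 15 genes of the HIF machinery and a list of 24 HIF target genes. CTCF had 0 called regions of 50 tested for the machinery and 0 of 87 for the targets. SMC3 had 12 higher and 1 lower of 33 for the machinery, and 29 higher and 7 lower of 63 for the targets, where 40.2% of all SMC3 regions were called, 22.1% higher and 18.1% lower. Near Hif1an, the gene of the asparagine hydroxylase that blocks HIF1A activity, an SMC3 region 19804 bp downstream measured 21.5 and 18.3 CPM in KO and 1.17 and 0.813 CPM in WT. Near P4ha2, a collagen prolyl hydroxylase gene, an SMC3 region 44040 bp downstream measured 10.7 and 10.2 CPM in KO and 0.457 and 0.438 CPM in WT. Both regions were named because their SMC3 p was among the smallest of their list, so a wide gap between genotypes follows from that choice.

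RAD21 had 2 higher and 2 lower of 31 for the machinery and 0 higher and 7 lower of 74 for the targets, beside 2.30% higher and 21.1% lower over all RAD21 regions. WAPL had 8 higher and 5 lower of 45, and 15 higher and 13 lower of 95, beside 13.1% and 27.6% overall. For NIPBL the counts were 0 of 25, and 1 lower of 48, near Mxi1, beside 0.995% and 0.63% overall. H3K27ac had 10 higher and 15 lower of 118, and 18 higher and 24 lower of 246, beside 5.90% and 10.6% overall.

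H3K4me1 had 6 higher and 15 lower of 91 for the machinery and 18 higher and 26 lower of 211 for the targets, beside 6.44% and 9.98% overall. Within 2 kb of a start, 8 of 10 machinery regions were lower and 0 higher, and 10 of 18 target regions were lower and 3 higher, where 43.0% of all such regions were lower. The 2 genes described next were taken from those with the smallest p of their list because the region lay at the start. Ep300, a coactivator of HIF1A, had 4.38 and 5.0 CPM in KO and 24.9 and 25.2 CPM in WT across its start (log2 difference -2.42 ± 0.10, adjusted p 2.54e-102 by edgeR). Kdm3a, a histone demethylase gene that HIF1A induces, had 1.28 and 1.57 CPM in KO and 10.8 and 11.0 CPM in WT (-2.93 ± 0.17, adjusted p 3.52e-60).

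Over counts summed per gene and centred within each target, Egln3 alone of the 5 genes had regions for all 7 targets. The genes most like it were Pdgfra (r = 0.961), St6galnac3 (r = 0.960) and Gm12505 (r = 0.957) over 28 libraries, among 10239 genes. The points share libraries and depth, so these values only describe the profiles.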

How the data were processed

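The members and gene lists were chosen with earlier results of these data known. BWA, Picard, MACS2, bedtools, featureCounts and edgeR were used on mm9, per the submitters' processing notes, and versions are not given in the sources used here. The deposited counts give the reads of each library in the merged regions of its target, with 1 input column per genotype for all targets but H3K27ac and H3K4me1; 2 per-sample columns of external inputs were not used. A score made by the authors, the counts less the input, served for 1 alternative, and its table lists the distances to genes; the deposited normalized signal was not tested. The deposited peak lists give a peak score per peak, as the authors called it.

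Each whole table of counts went through edgeR 4.0.16 (R 4.3.3, filterByExpr, TMM, quasi-likelihood F test, Benjamini-Hochberg over all regions tested, adjusted p under 0.05), 2 KO against 2 WT libraries, and the member regions were read out. The SE is the log2 difference over the root of F. With 2 libraries a group the p-values rest on spread shared across regions. Peaks were matched at 1 bp. Levels are CPM with TMM factors, and 1 read is worth between 0.031 and 0.287 CPM by library. Regions named are, per target and gene, the nearest to the start, the highest and the most changed of the called, plus those said to have been picked after their values were seen; called regions of the same stretch are given with them. Pathway genes named are among the 2 with the smallest p of their list. Gene profiles used log2 (CPM + 0.5). Promoters are RefSeq sequences of GRCm38.p6 and could not be placed on mm9 here. Alternatives were library totals, background scaling on the lowest-level regions, DESeq2 1.42.0, input-subtracted counts, no filter except 1 read in all, leaving out single libraries, a replicate block, and for peaks a higher score, a larger overlap and either library. Python 3.11.15, numpy 2.4.6, pandas 2.3.3 and matplotlib 3.10.9 did the rest.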

Additional observations from a re-analysis of the deposited data

How the results depend on the processing

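The counts of called members were recomputed under 10 alternatives per target. For RAD21, 0 members were called with library totals, background scaling, no filter, input-subtracted counts or the replicate block, 4 with DESeq2, and 0 to 4 when 1 library was left out; the share of all RAD21 regions called was 46.8% with DESeq2, 42.2% without KO 1 and 55.5% without KO 2, against 23.4%. WAPL gave 4 with DESeq2, 3 with input-subtracted counts and 0 to 10 with 1 library left out. H3K27ac gave 3 with DESeq2 and 5 to 9 with 1 library left out, H3K4me1 5 with DESeq2, and CTCF 0 to 14 with 1 library left out. DESeq2 gave an adjusted p for 5 of 8 RAD21, 2 of 8 NIPBL and 37 of 76 H3K27ac member regions. NIPBL stayed at 0. The deviations of same-numbered libraries of the genotypes had r between -0.217 for CTCF and 0.0299 for RAD21. Such values cannot show whether the replicate numbers mark a pairing, and the labels do not say. With the replicate block 13 members were called for H3K27ac, 9 for H3K4me1, 6 for WAPL, and 0 each for RAD21, CTCF and NIPBL. Under oligomycin a peak in either library was listed for 2 NIPBL, 3 RAD21 and 1 WAPL member regions, a score of at least 2 times the lowest left 1 of SMC3, and single libraries gave 1 to 2 for NIPBL, 1 to 3 for RAD21 and 0 to 1 for WAPL.

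No called member region changed sign in any of these fits. Signs turned for CTCF regions that were not called: near Egln3 at 101 kb (0.0464 with background scaling, 0.137 with DESeq2, -0.645 to 0.418 with 1 library left out), at 83.1 kb (-1.38 to 0.0110 with 1 library left out) and 1.36 kb upstream (-0.0586 with input-subtracted counts). Near Hif1a they turned at the start (-0.749 with input-subtracted counts, -0.199 without KO 2, -0.607 without WT 2 and 1.63 without WT 1) and at 23.4 kb (-0.868 with input-subtracted counts), and near Egln1 at 31.7 kb upstream (-0.191 with input-subtracted counts). The cause was not tested. Background scaling moved the median log2 difference over all regions from -0.393 to 0.474 for RAD21, from 0.0686 to 0.521 for WAPL, from -0.218 to 0.148 for SMC3 and from 0.0230 to -0.176 for H3K27ac. Depth limits the SMC3 regions 105 and 143 kb downstream of Egln3, where 3 to 11 reads make up each WT value.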
